A study of Mus musculus with 92 samples.

Results

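The genes described here lie in imprinted domains of the mouse genome, chromosome stretches in which the copy from the mother and the copy from the father are used unequally. They are H19, Igf2, Dlk1, Meg3, Kcnq1, Cdkn1c, Peg3, Snrpn, Grb10 and Igf2r, 10 of the 49939 genes of the reference table, taken by symbol. For each gene, every peak of cohesin or of CTCF that overlapped the gene body or the 20 kb to either side was counted. This stretch is called the window. Peaks of all lists that touched were merged into sites, and 112 of the 154860 sites of the genome lay in the windows. The windows of Kcnq1 and Cdkn1c overlap and share 2 sites.

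The lists come from chromatin immunoprecipitation followed by sequencing (ChIP-seq), which finds the DNA bound by a protein. The study asked where cohesin that carries the germline subunit STAG3 sits, relative to cohesin with STAG2 or STAG1 and to the insulator protein CTCF. Of 92 samples in the series, 30 peak lists were used. Wild-type germline stem cells (GSC), which are spermatogonial stem cells grown in culture, gave 3 STAG3 lists, 3 STAG2 lists and 2 STAG1 lists. They are of the line AAG, which carries Acrosin-EGFP and beta-Actin-EGFP, and were sorted for the AAG signal. The other cell types are of the wild-type line BDF1-2-1 BVSC, which carries Blimp1-mVenus and Stella-ECFP reporters. Embryonic stem cells (ESC) and epiblast-like cells (EpiLC) gave 2 STAG2 and 2 STAG1 lists each. Primordial germ cell-like cells, labelled d2PGCLC and d4c7PGCLC and sorted for the Blimp1-mVenus signal, gave 3 STAG2 and 2 STAG1 lists each. CTCF was read in AAG GSC of 4 mutant genotypes with 1 pooled list each: STAG3-only (Stag1Stag2dKO), STAG2-only (Stag1Stag3dKO), STAG1-only (Stag2Stag3dKO) and STAG3-knockout (Stag3KO) cells. No wild-type CTCF list was used, and GSC differ from all other cells in line as well as in type, which cannot be told apart. The lists carry neither expression nor the parental allele, so the cell types could not be checked against marker genes.

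Cohesin is a ring-shaped complex that extrudes DNA loops and is often halted at DNA-bound CTCF. Each imprinted domain is governed by a control region that carries DNA methylation on the copy from one parent, placed there in the sperm or egg lineage. The control regions beside H19 and Meg3 are methylated on the copy from the father, and those of Peg3, Snrpn, Grb10, Kcnq1ot1 in Kcnq1 and Airn in Igf2r on the copy from the mother. At H19, CTCF binds the unmethylated copy upstream of the gene and insulates Igf2 from enhancers on the far side. CTCF binding there is blocked by methylation.

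The number of peaks per list sets the background for every count below. The shortest list, a STAG1 list of GSC, held 9641 peaks, and the longest, a STAG2 list of EpiLC, held 84904. The depth of sequencing behind the lists is unknown. A window without a peak is therefore a window in which none was called, not a window without protein. Counts are given for the lists as deposited and again for lists of equal length, in which every list was reduced to its 9641 peaks of highest fold enrichment. Fold enrichment is the authors' value at the peak's summit and is used here to describe and rank peaks within a list. Where folds of several lists stand side by side, as for CTCF by genotype, the lists differ in median fold and no test was made.

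Peaks over the promoters of Igf2r, Peg3 and Grb10 were called mostly for STAG2 and STAG3 and rarely for STAG1. A promoter here is the stretch from 250 bases before to 50 bases after an annotated start. H19, Kcnq1 and Cdkn1c had no annotated start, so no promoter of theirs was examined. Among the starts of the other members, Kcnq1ot1 and Airn, promoters of Igf2r, Peg3 and Grb10 were the 3 overlapped in more than 4 lists. They are printed with their CpG dinucleotides, at which DNA methylation is placed, in capitals. Methylation was not measured in any of the 3, and the printed Igf2r promoter is not the control region at Airn named above. The control region of Grb10 was not located here, so the printed Grb10 promoter is not to be read as that region. The sequences are from RefSeq, build GRCm38.p6, 5′ to 3′ on the minus strand: Igf2r at chr17:12769657-12769956, Peg3 at chr7:6730370-6730669 and Grb10 at chr11:12037371-12037670.
Igf2r: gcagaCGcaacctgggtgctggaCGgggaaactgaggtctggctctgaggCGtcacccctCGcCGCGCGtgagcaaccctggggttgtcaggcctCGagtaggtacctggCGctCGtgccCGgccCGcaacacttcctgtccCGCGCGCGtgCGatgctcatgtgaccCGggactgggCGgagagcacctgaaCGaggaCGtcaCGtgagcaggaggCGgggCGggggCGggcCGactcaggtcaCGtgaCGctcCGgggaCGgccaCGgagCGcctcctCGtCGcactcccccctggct
Peg3: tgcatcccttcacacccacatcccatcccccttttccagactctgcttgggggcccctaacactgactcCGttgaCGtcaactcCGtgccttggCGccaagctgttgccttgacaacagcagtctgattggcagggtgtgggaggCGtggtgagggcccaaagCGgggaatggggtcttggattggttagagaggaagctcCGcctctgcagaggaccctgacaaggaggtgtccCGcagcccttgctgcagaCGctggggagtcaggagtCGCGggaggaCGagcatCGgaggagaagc
Grb10: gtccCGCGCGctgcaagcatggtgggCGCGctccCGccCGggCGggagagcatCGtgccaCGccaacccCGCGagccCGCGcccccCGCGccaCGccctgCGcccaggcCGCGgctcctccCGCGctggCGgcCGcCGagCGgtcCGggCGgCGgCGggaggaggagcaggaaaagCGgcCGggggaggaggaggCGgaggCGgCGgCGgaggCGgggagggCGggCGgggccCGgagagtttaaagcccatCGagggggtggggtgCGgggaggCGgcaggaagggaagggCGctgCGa
The Igf2r promoter held 34 CpG, the Grb10 promoter 45 and the Peg3 promoter 13, against a median of 7 in all 32851 promoters of the table. Igf2r, the receptor that clears IGF2, had a promoter peak in 2 of 3 STAG3 lists, 12 of 13 STAG2 lists and 0 of 10 STAG1 lists. Peg3, a zinc-finger gene, had one in 2 of 3 STAG3, 10 of 13 STAG2 and 1 of 10 STAG1 lists. Grb10, an adaptor that dampens insulin and growth factor signals, had one in 2 of 3, 6 of 13 and 1 of 10 lists of STAG3, STAG2 and STAG1. No CTCF list had a peak over any of these 3 promoters. Over all promoters of the table, 39.5% had a peak in some STAG3 list, 42.4% in some STAG2 list and 9.75% in some STAG1 list, and 13.1% had one in at least 6 STAG2 lists and at most 1 STAG1 list, as these 3 do. In lists of equal length, described below, none of the 3 promoters had a peak in any list. The letters AGGNGGCNG, part of the CTCF core motif, were found on either strand 3 times in the Grb10 promoter, 1 time in that of Igf2r and 0 times in that of Peg3, and in 15.4% of all promoters.

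STAG2 had more peaks than STAG1 in the windows of all 10 genes in the lists as deposited. In d2PGCLC, for example, the STAG2 lists held 77, 42 and 56 peaks in the windows, against 24 and 30 in the STAG1 lists, while in d4c7PGCLC they held 42, 28 and 36, against 30 and 34, and overlapped. The d2PGCLC STAG2 lists were also longer as a whole, with 73250, 42249 and 54295 peaks against 21438 and 26820. All 10 windows passed the test for more STAG2 peaks (two-sided exact permutation test of lists within cell types, Benjamini-Hochberg over all genes, threshold 0.05), and so did 60.4% of the 40932 genes tested, with 0.0318% lower. In peaks per window, which were not adjusted for window length, the largest difference was at Kcnq1, a potassium channel gene. It had a mean of 9.57 STAG2 and 5.1 STAG1 peaks, a difference of 4.47 (adjusted permutation p = 0.00944). Snrpn, which encodes a splicing protein, averaged 5.87 STAG2 and 2.5 STAG1 peaks (adjusted permutation p = 0.00381). The smallest difference was at Igf2, a fetal growth factor, with 2.97 against 1.8 peaks (adjusted permutation p = 0.0345), and this call was lost without any 1 of 10 of the 23 lists (adjusted permutation p 0.0515 to 0.0837). Igf2 and Peg3 had fewer STAG2 than STAG1 peaks on average in 1 of the 5 cell types. The median difference over the 10 genes was 2.38 peaks, and 1 over all genes tested. The windows ranged from 42.6 kb at H19 to 508 kb at Snrpn, and the order of the genes was another one per length. Outside GSC, Kcnq1 had 3.05 STAG2 and 1.63 STAG1 peaks per 100 kb, and Snrpn 1.26 and 0.566. Cdkn1c had 15.2 and 10.2, and the medians of all genes were 2.97 and 1.24.

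**Figure D1:**
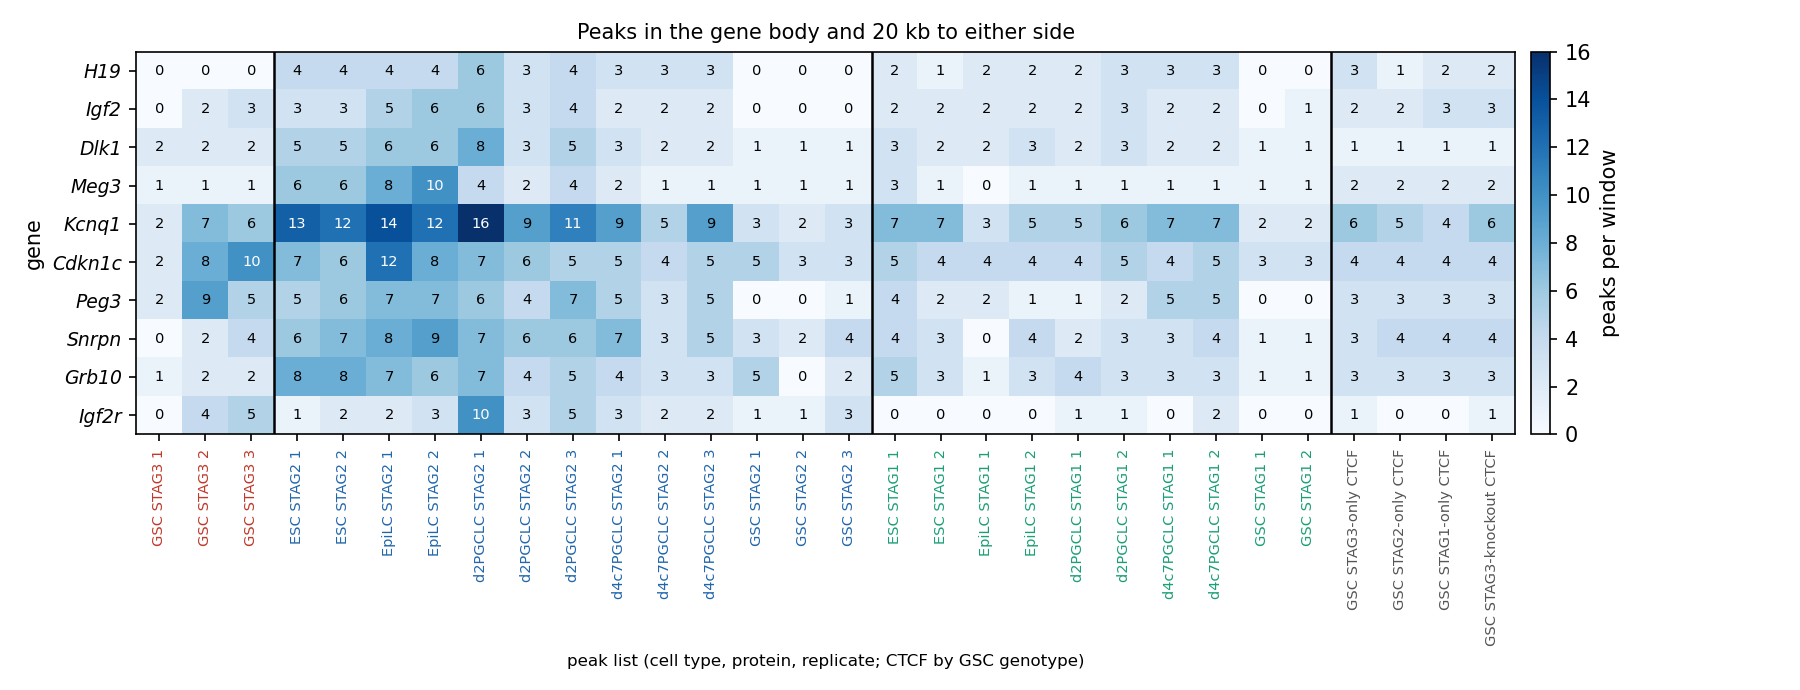
Number of peaks per window (colour and digits) for the 10 genes (rows) in each of the 30 lists (columns; STAG3 in red, STAG2 in blue, STAG1 in green, CTCF in grey, each by cell type and replicate or GSC genotype). The H19 row is 0 in all 8 GSC STAG lists and 1 to 6 in the 18 STAG2 and STAG1 lists of the other cell types.

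With lists of equal length, 1 of the 8 windows that could still be tested had more STAG2 peaks, that of Snrpn, with a difference of 1.37 peaks (adjusted permutation p = 0.0067). The background was then 4.23% of 22181 genes. The difference was below 0, without passing the test, at H19 (−0.5), Igf2 (−0.133), Kcnq1 (−0.167), Cdkn1c (−0.667) and Grb10 (−0.7). Peg3 and Igf2r had peaks in fewer than 2 of the shortened STAG2 and STAG1 lists and were not tested. In the shortened lists, Snrpn had 1 or 2 peaks in every one of the 13 STAG2 lists and 0 or 1 in the 10 STAG1 lists. Among single sites, 3 of the 78 tested in the windows were called in more STAG2 than STAG1 lists, against 3.47% of 100532 sites in the genome. They were the Igf2r promoter site at chr17:12769189-12770353, in 12 of 13 STAG2 and 0 of 10 STAG1 lists (adjusted permutation p = 0.0166), and sites of Kcnq1 at chr7:143124186-143124790 and chr7:143437517-143438682 (adjusted permutation p = 0.0477 each). The Kcnq1 calls were lost without any 1 of 18 and any 1 of 19 of the 23 lists (adjusted permutation p 0.0535 to 0.0993). The Igf2r call was lost at −log10 q of at least 5 (adjusted permutation p = 0.064), and none of the 3 sites passed the test in lists of equal length. There, 1 of 23 sites tested was called in more STAG2 lists, the Snrpn site at chr7:60386755-60387603 (12 of 13 STAG2 and 1 of 10 STAG1 lists, adjusted permutation p = 0.02), against 1.55% of 18900 sites. The Cdkn1c site at chr7:143469791-143470462 was then called in fewer STAG2 lists (0 of 13 STAG2 and 7 of 10 STAG1 lists, adjusted permutation p = 0.0472), against 0.804% of sites.

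GSC had fewer STAG2 and STAG1 peaks than the other cell types in 8 of the 10 windows, all but those of Meg3 and Igf2r, by the same kind of test with lists reassigned within each protein. The background is wide, since 49% of all genes tested were lower in GSC and 0.156% higher, and GSC lists were the shortest of each protein. With lists of equal length, 4 windows were lower, those of H19, Igf2, Kcnq1 and Grb10, against 14.5% of genes. Cdkn1c, Meg3 and Snrpn were then above 0 without passing the test, with differences of 0.675, 0.55 and 0.471 peaks. Of the 78 single sites tested, 17 were called in fewer GSC lists, against 13.7% of all sites. With lists of equal length, 3 of the 23 sites tested were called in fewer GSC lists, against 12.4% of 18900 sites, and all 3 are among the 17. They lie upstream of H19, upstream of Igf2 and inside Grb10. In those lists 2 sites were called in more GSC lists, against 13.5% of sites: the Snrpn site at chr7:60238569-60239403 (adjusted permutation p = 0.0159) and the Cdkn1c site at chr7:143480241-143481207 (adjusted permutation p = 0.00661).

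**Figure D2:**
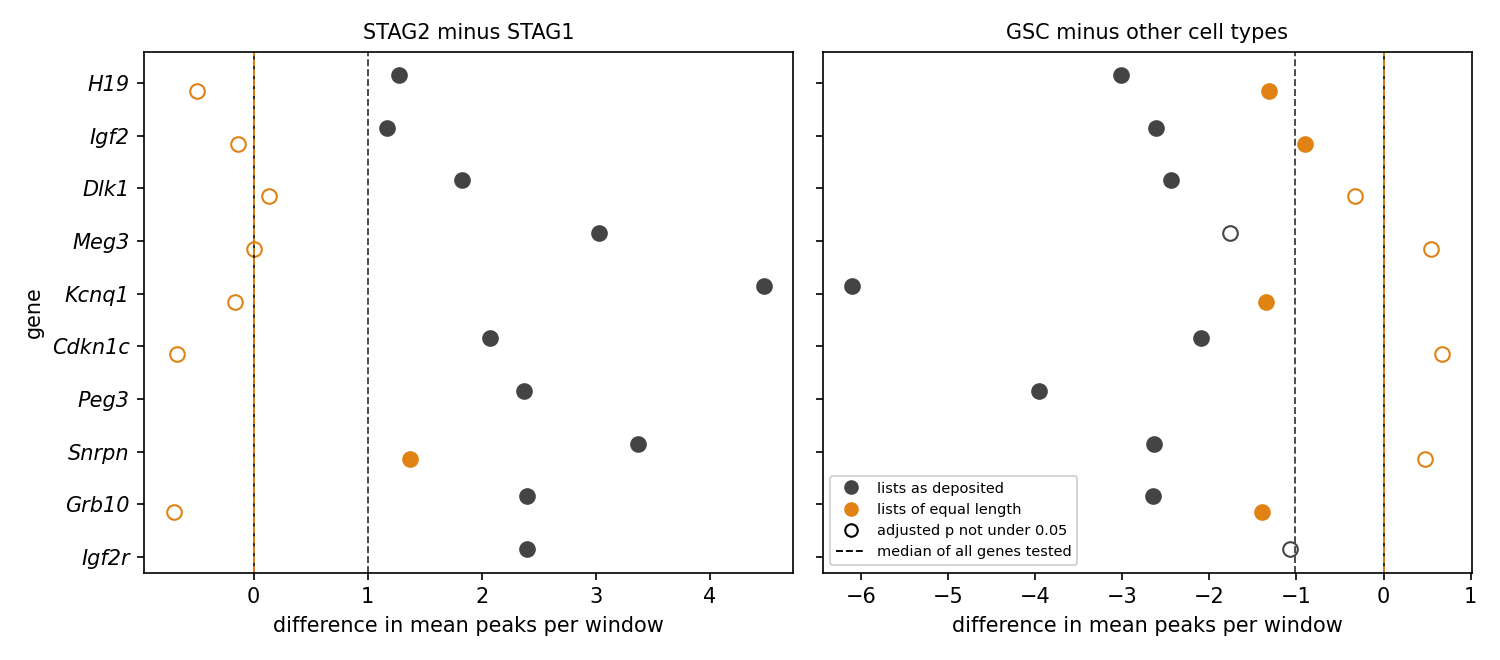
Difference in mean peaks per window for each gene (rows), STAG2 minus STAG1 (left) and GSC minus other cell types (right), in the lists as deposited (grey) and in lists of equal length (orange); filled points passed the test and dashed lines are the median of all genes tested. On the left 1 orange point, Snrpn at 1.37, is filled, and on the right 4 are, from −0.9 at Igf2 to −1.4 at Grb10.

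H19 is a maternally expressed long noncoding RNA at chr7:142575530-142578146 on the minus strand (mm10 and GRCm38), and the 5 kb upstream of its 5′ end hold the control region of the domain. No STAG peak was called there in GSC: 0 in each of 3 STAG3, 3 STAG2 and 2 STAG1 lists. Outside GSC every list had one. STAG2 had 3 and 4 peaks in ESC, 3 and 3 in EpiLC, 4, 3 and 3 in d2PGCLC and 3, 3 and 3 in d4c7PGCLC. STAG1 had 2 and 1 in ESC, 2 and 2 in EpiLC, 2 and 3 in d2PGCLC and 3 and 3 in d4c7PGCLC. The GSC lists and the other lists did not overlap, and the whole H19 window averaged 0 STAG2 and STAG1 peaks in GSC against 3.02 elsewhere (adjusted permutation p = 0.0011).

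All but 1 of these peaks, in a STAG2 list of d2PGCLC, fell on 3 sites. The middle site, chr7:142579953-142581146, centred 2.4 kb upstream of H19, was called in none of the 8 GSC STAG lists, against all 10 STAG2 and all 8 STAG1 lists outside GSC (adjusted permutation p = 0.00333 for STAG2 and STAG1). Its STAG2 peak ranked within the top 4.1% to 18.4% of each list by fold enrichment. The fold was 53.5 and 71.3 in ESC, 99 and 74.3 in EpiLC, 62.7, 42.8 and 46.4 in d2PGCLC and 36.8, 23.4 and 32.2 in d4c7PGCLC, where the list medians lie between 7.26 and 10.3. For STAG1, its best peak ranked within the top 3.17% in a d4c7PGCLC list and the top 40.6% in an EpiLC list. In lists of equal length the site was again called in no GSC list and in all 18 lists outside GSC (adjusted permutation p = 0.00139). The other sites were not called in a GSC STAG list either. The outer one, chr7:142581294-142582229, was in 10 of 10 STAG2 and 5 of 8 STAG1 lists outside GSC (adjusted permutation p = 0.0105). The one nearest H19, chr7:142579010-142579513, was in 10 of 10 and 4 of 8 lists outside GSC (adjusted permutation p = 0.0125), a call that was lost without a GSC STAG2 list, the one of replicate 2 (adjusted permutation p = 0.0521).

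CTCF was called upstream of H19 in the mutant GSC, but low in each list. The outer site had a CTCF peak in all 4 genotypes, with a fold of 5.49 in STAG3-only, 5.6 in STAG2-only, 5.68 in STAG1-only and 5.81 in STAG3-knockout cells. The median folds of these lists were 16.8, 18.8, 20 and 18.9, and the peaks ranked 86.7% to 89.5% of the way down each list. The middle site had CTCF peaks of fold 4.83, 4.79 and 5.65 in STAG3-only, STAG1-only and STAG3-knockout cells and none in STAG2-only cells. The site nearest H19 had no CTCF call.

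Igf2, at chr7:142650768-142666816 on the minus strand, showed the same split at 2 sites upstream of the gene. The site at chr7:142671971-142672605 and that at chr7:142675312-142676209 were each called in 0 of 8 GSC STAG lists, against 10 of 10 STAG2 and 8 of 8 STAG1 lists outside GSC (adjusted permutation p = 0.00333 each). In lists of equal length the farther site kept the call (adjusted permutation p = 0.033) and the nearer one did not (adjusted permutation p = 0.787). CTCF was called at the nearer site in all 4 mutant GSC genotypes with folds of 19.5 to 23.3, ranking in the top 40.9% to 48.5%. At the farther site it was called in 3 genotypes with folds of 3.89 to 7.46, and not in STAG3-only cells. Within the gene, STAG3 had 2 peaks in replicate 2 and 3 peaks in replicate 3 of GSC, and none in replicate 1, whose list is the shortest of STAG3 with 12832 peaks. In those places STAG2 had no peak in any GSC list and STAG1 had 1 peak in the list of replicate 2.

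**Figure D3:**
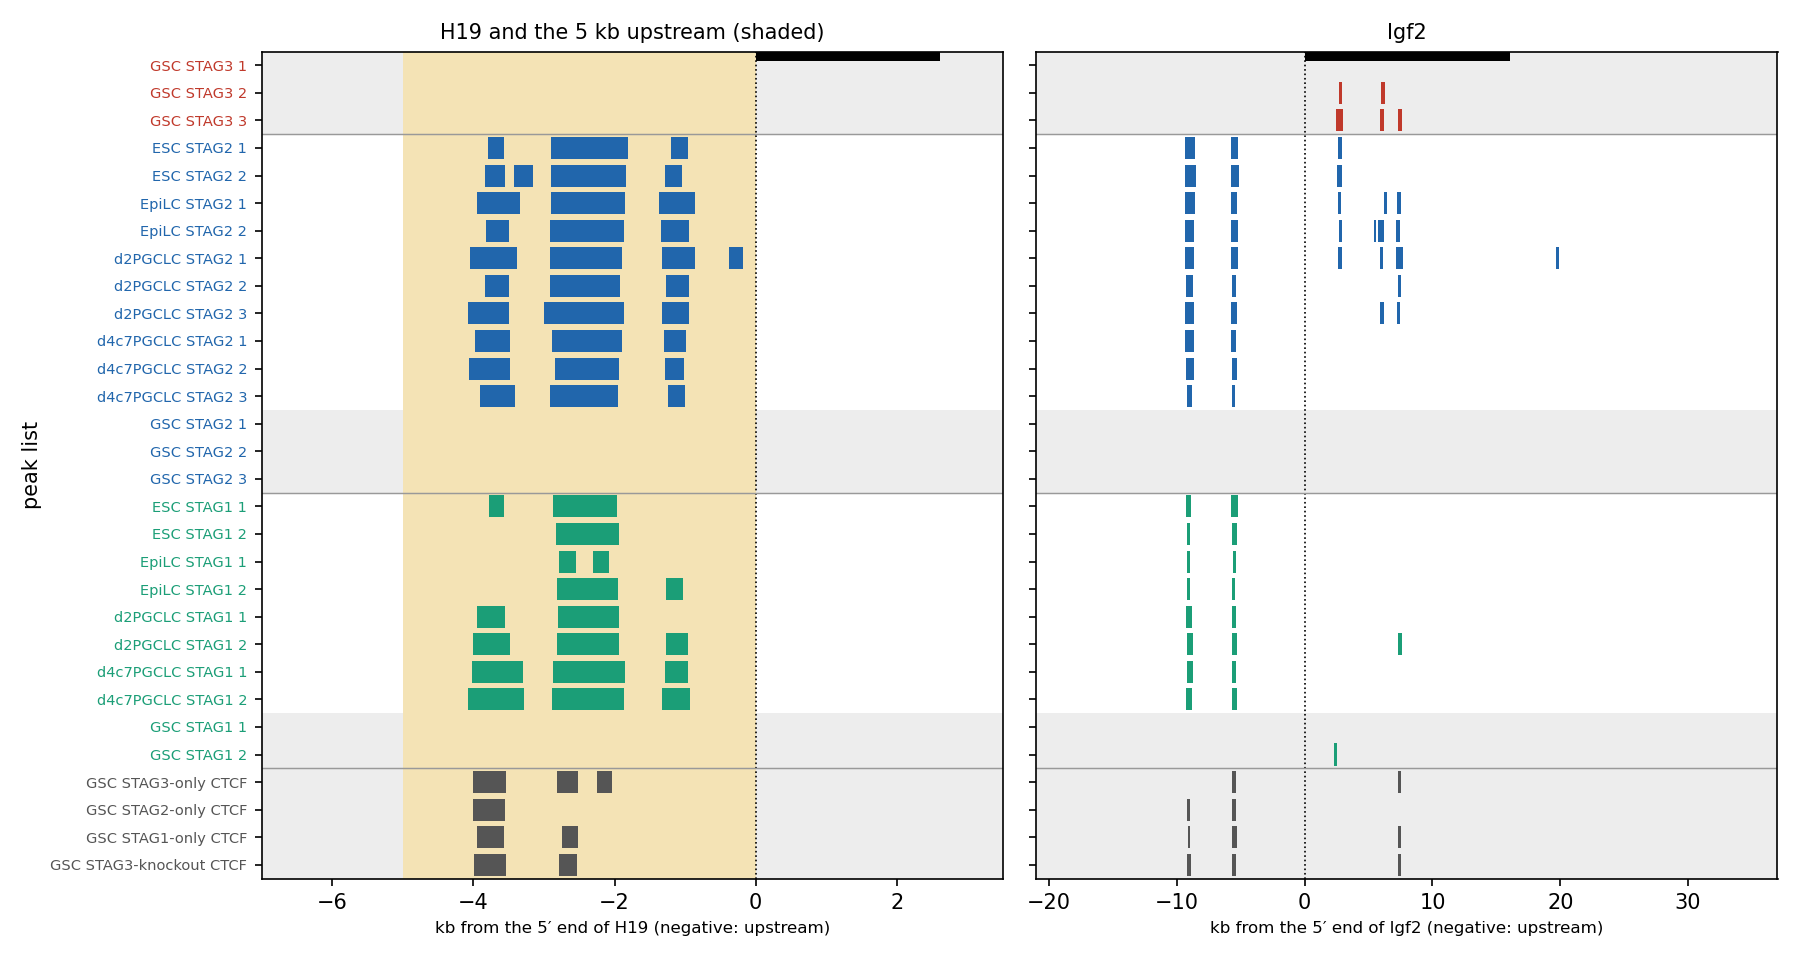
Peaks (bars) of each list (rows, coloured by protein; grey bands are GSC) by distance in kb from the 5′ end of H19 (left) and Igf2 (right), with the gene as a black bar and the 5 kb upstream of H19 shaded. The 8 GSC STAG lists have no peak upstream of either gene, while STAG2 and STAG1 peaks of the other cell types stack at 3 places upstream of H19 and 2 upstream of Igf2.

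Dlk1, a paternally expressed membrane protein that restrains differentiation, and Meg3, a maternally expressed noncoding RNA, share a domain on chromosome 12. Each had 1 site that was called almost everywhere. Upstream of Dlk1, the site at chr12:109437665-109438372 was called in all 30 lists, with CTCF folds of 36.4 to 38.5 that ranked in the top 2.27% to 4.87%. A site beside it, chr12:109436188-109436931, was called in no GSC list, CTCF lists included, against all 10 STAG2 and 8 STAG1 lists outside GSC (adjusted permutation p = 0.00333; 0.245 with lists of equal length). Just inside Dlk1, the site at chr12:109453030-109453981 was called in 3 of 3 STAG3 lists, and in no STAG2 or STAG1 list of GSC. Outside GSC that site was in 6 of 10 STAG2 and 1 of 8 STAG1 lists. Every STAG3 list thus had 2 peaks in the Dlk1 window and every STAG2 and STAG1 list of GSC had 1. With lists of equal length the STAG3 lists had 2, 1 and 2 peaks there, and the STAG2 and STAG1 lists of GSC again had 1 each.

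Inside Meg3, the site at chr12:109542684-109543341, centred 2.02 kb from the 5′ end, was called in 29 of 30 lists, all but the STAG1 list of EpiLC replicate 1. Its CTCF folds of 34.3 to 36.2 ranked in the top 7.3% to 11.4% of the 4 lists. A second CTCF site at chr12:109541957-109542583, 1.27 kb from the 5′ end, was called in all 4 genotypes with folds of 3.71 to 5.26, ranking 90.1% to 98.8% of the way down each list. No GSC STAG list had a peak there, against 7 of 10 STAG2 and 1 of 8 STAG1 lists outside GSC.

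The intergenic control region, 10 to 16 kb upstream of Meg3, had peaks in STAG2 lists of ESC, EpiLC and d2PGCLC. There were 2 and 3 in ESC, 4 and 4 in EpiLC and 1, 0 and 1 in d2PGCLC, and 0 in each d4c7PGCLC and GSC STAG2 list. All STAG3, STAG1 and CTCF lists had 0 there. These peaks were low in their lists: the highest of the 5 sites, chr12:109530391-109531092, was called in 4 lists with a fold of 5.86 to 8.67 and ranked between the top 51.2% and 73%, and none remained with lists of equal length. The whole Meg3 window held 6 and 6 STAG2 peaks in ESC, 8 and 10 in EpiLC, 4, 2 and 4 in d2PGCLC, 2, 1 and 1 in d4c7PGCLC and 1, 1 and 1 in GSC. The difference between GSC and the other cell types did not pass the test (adjusted permutation p = 0.146), but did with a window of 50 kb (adjusted permutation p = 0.00436). With lists of equal length it turned round, to 0.55 more peaks in GSC (adjusted permutation p = 0.122).

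**Figure D4:**
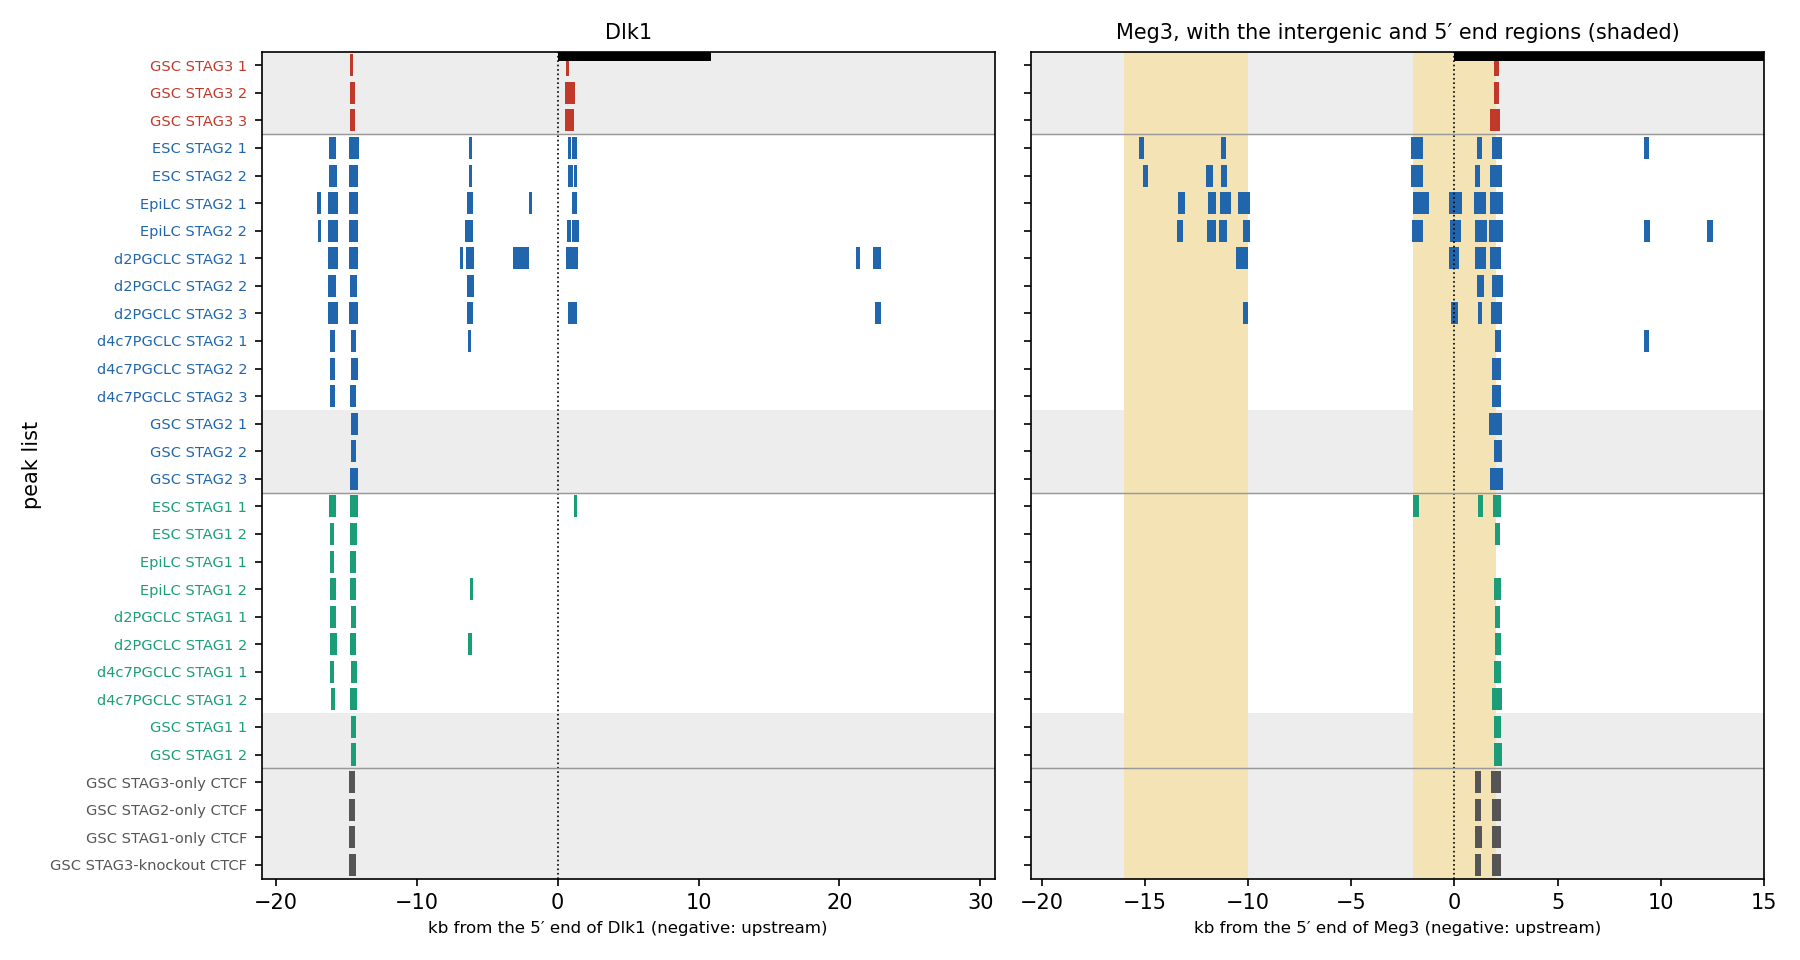
Peaks (bars) of each list (rows, coloured by protein; grey bands are GSC) by distance in kb from the 5′ end of Dlk1 (left) and Meg3 (right), with the gene as a black bar and the intergenic and 5′ end regions of Meg3 shaded. A column of peaks at −14.5 kb of Dlk1 runs through all 30 lists and a column at 2.02 kb of Meg3 through 29, while the intergenic region holds STAG2 peaks of ESC, EpiLC and d2PGCLC.

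Kcnq1 and Cdkn1c, which encodes a cyclin-dependent kinase inhibitor that limits growth, lie in 1 domain governed from the promoter of the noncoding RNA Kcnq1ot1. That promoter region, 2 kb to either side of the Kcnq1ot1 5′ end, had few peaks: 1 in the STAG3 list of replicate 3, 1 in each of the 2 ESC STAG2 lists and 0 in all others. The strong sites lay elsewhere. Inside Kcnq1, the site at chr7:143153653-143155041 was called in all 30 lists. Its peak was among the 9641 of highest fold in each of the 26 STAG lists. In the Kcnq1 window 4 other sites were called in fewer GSC lists, at 19.4 kb upstream and at 8.24, 32.1 and 45.6 kb into the gene (adjusted permutation p 0.00333 to 0.0181). The call at 32.1 kb was lost without any 1 of the 3 GSC STAG2 lists (adjusted permutation p 0.0528 to 0.0593). The Kcnq1 window held 3, 2 and 3 STAG2 and 2 and 2 STAG1 peaks in GSC, against 5 to 16 STAG2 and 3 to 7 STAG1 peaks elsewhere (adjusted permutation p = 0.0011; 0.0288 with lists of equal length).

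Cdkn1c had the densest window of the 10, with 15.6 STAG3 peaks per 100 kb, 8.58 STAG2 and 7.02 STAG1 peaks per 100 kb in GSC, where the medians of all genes were 1.45, 0.709 and 0. Upstream of the gene, the sites at chr7:143466045-143466944 and chr7:143480241-143481207 were called in all 30 lists, and that at chr7:143463611-143464497 in 29. The gene itself, with its 5′ end, had a site at chr7:143458954-143461094 in 2 of 3 STAG3 lists, 7 of 13 STAG2 and 1 of 10 STAG1 lists, and in no CTCF list. None of the STAG2 and STAG1 lists with that peak was of GSC. The Cdkn1c window averaged 3.33 STAG2 and STAG1 peaks in GSC and 5.44 elsewhere (adjusted permutation p = 0.0164), a call lost without the GSC STAG2 list of replicate 2 or 3 (adjusted permutation p 0.105 to 0.117).

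At Peg3, every STAG3 list had more peaks than any other STAG list of GSC. Its window held 2, 9 and 5 STAG3 peaks, against 0, 0 and 1 STAG2 and 0 and 0 STAG1 peaks in GSC. In the lists as deposited, the same held at Dlk1, and for 10.3% of the 31203 genes tested. At Dlk1 it did not hold with lists of equal length. With 3 lists against 5, the smallest possible p is 0.0179 (two-sided exact permutation), and no gene passed after adjustment (adjusted permutation p = 0.168 for Peg3 and Dlk1; 4610 genes had an unadjusted p under 0.05). The STAG3 lists differ from the others in the calling run named in the peak names, and run and antibody cannot be told apart. Within 5 kb of the Peg3 5′ end there were 1, 7 and 3 STAG3 peaks, and 0, 0 and 1 STAG2 and 0 and 0 STAG1 peaks in GSC. In lists of equal length each of the 3 STAG3 lists kept 1 peak there, and no STAG2 or STAG1 list of any cell type kept one. Outside GSC, the lists as deposited had 3 or 4 STAG2 peaks there each and 0 to 3 STAG1 peaks. Most of these peaks fell in 1 merged site, chr7:6727014-6731495, which was called for CTCF in each genotype with folds of 20.4 to 23.1. The CTCF peaks covered only a part of it, chr7:6727149-6727933, with summits 2958 to 3015 bp into the gene. The 3 STAG3 peaks kept in lists of equal length each overlapped that part, with summits 2980 to 3087 bp into the gene. Many other STAG peaks of the site did not touch that part. An example is the ESC STAG2 peak of replicate 2 at chr7:6729094-6730841, with a fold of 17.8.

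Peg3 was also called less in GSC than elsewhere for STAG2 and STAG1. The window averaged 0.167 peaks in GSC and 4.12 in the other cell types (adjusted permutation p = 0.0011). In lists of equal length it could not be tested. The sites of the 5′ end and at chr7:6688552-6689249 were called in fewer GSC STAG2 and STAG1 lists (adjusted permutation p = 0.0236 and 0.0111), while STAG3 had both, in 3 and 2 of 3 lists. The first of these calls was lost without the GSC STAG2 list of replicate 1 or 2 or either GSC STAG1 list (adjusted permutation p 0.0651 to 0.0905).

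Snrpn is annotated over a long span, chr7:59982495-60450177 on the minus strand, with 4 starts. None of the 4 promoters had a peak in any list. Near the most downstream start, the site at chr7:60007722-60008381 was in no GSC or CTCF list, against 9 of 10 STAG2 and 6 of 8 STAG1 lists outside GSC (adjusted permutation p = 0.0181, lost without any 1 of the 3 GSC STAG2 lists). The site in most lists, chr7:60238569-60239403, was called in 13 of 13 STAG2, 8 of 10 STAG1 and 4 CTCF lists, and in 0 of 3 STAG3 lists. The site at chr7:60224245-60224970 was called in 8 of 13 STAG2 lists, 0 of 10 STAG1 lists and 0 of 3 STAG3 lists, although CTCF was called in all 4 genotypes. Over the genome, 6.4% of the sites with CTCF in all 4 genotypes had STAG2 calls and no STAG1 call. In the Snrpn window STAG3 had 0, 2 and 4 peaks, none at a CTCF site. Of the genome's sites with CTCF in all 4 genotypes, 45.9% had a STAG3 call.

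Inside Grb10, a site that was called in few GSC lists ranked high in many lists of the other cell types. The site at chr11:11972847-11973998, 64 kb from the 5′ end, was called in GSC in 1 of 3 STAG2 lists, with a fold of 7.45, and in no STAG1 or STAG3 list. Outside GSC it was called in all 10 STAG2 and 8 STAG1 lists, with a STAG2 fold of 35.7 to 148 in the top 0.668% to 8.86% of each list. The difference passed the test (adjusted permutation p = 0.0105; 0.00139 with lists of equal length). CTCF was called there in all 4 mutant genotypes with folds of 8.37 to 11.1. At another site, chr11:12005699-12006097, CTCF was called in all 4 genotypes with folds of 21.2 to 24.6, and no STAG list had a peak. The same was so for 5.9% of the genome's sites with CTCF in all 4 genotypes. The site at chr11:12025316-12027039 was called in 27 of 30 lists. The Grb10 window averaged 1.67 STAG2 and STAG1 peaks in GSC and 4.31 elsewhere (adjusted permutation p = 0.012), a call lost without the GSC STAG2 list of replicate 2 (adjusted permutation p = 0.0634).

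Igf2r was the member with the fewest STAG1 peaks and no shared CTCF site. Its window had 0, 4 and 5 STAG3 peaks. STAG2 had 1 and 2 in ESC, 2 and 3 in EpiLC, 10, 3 and 5 in d2PGCLC, 3, 2 and 2 in d4c7PGCLC and 1, 1 and 3 in GSC, while STAG1 had 0 to 2 in every list. CTCF was called at 1 site, chr17:12689477-12689950, in STAG3-only and STAG3-knockout cells, with folds of 6.09 and 4.68. The other 9 windows each held a site called for CTCF in all 4 genotypes, as did 60.7% of all gene windows. Around the 5′ end of Airn, the noncoding RNA that silences Igf2r in cis, STAG3 had 0, 2 and 2 peaks, and STAG2 had 1 peak in each of 2 d2PGCLC lists and 1 d4c7PGCLC list. STAG1 and CTCF had none, and no Airn peak remained with lists of equal length.

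Most CTCF sites of the windows were called in each of the 4 mutant genotypes. Of the 30 sites with any CTCF call, 23 were called in all 4 genotypes, or 76.7%, beside 77.9% over the genome. STAG3-only cells had 28 of the 30, STAG2-only 26, STAG1-only 27 and STAG3-knockout 29. Among the 23, the ratio of the highest to the lowest fold over the genotypes was between 1.04 and 1.66 at 20 sites. It was 2.16 at Peg3, 33.9 kb from the 5′ end, and 3.05 and 2.59 at 2 sites of Snrpn. At the Snrpn site in chr7:60224245-60224970 the lowest fold was in STAG3-only cells, 4.22 against 10.5 to 12.9, and at chr7:60238569-60239403 in STAG2-only cells, 12.3 against 24.9 to 31.9. Each genotype has 1 list, so these differences have no replicate error and no test.

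**Figure D5:**
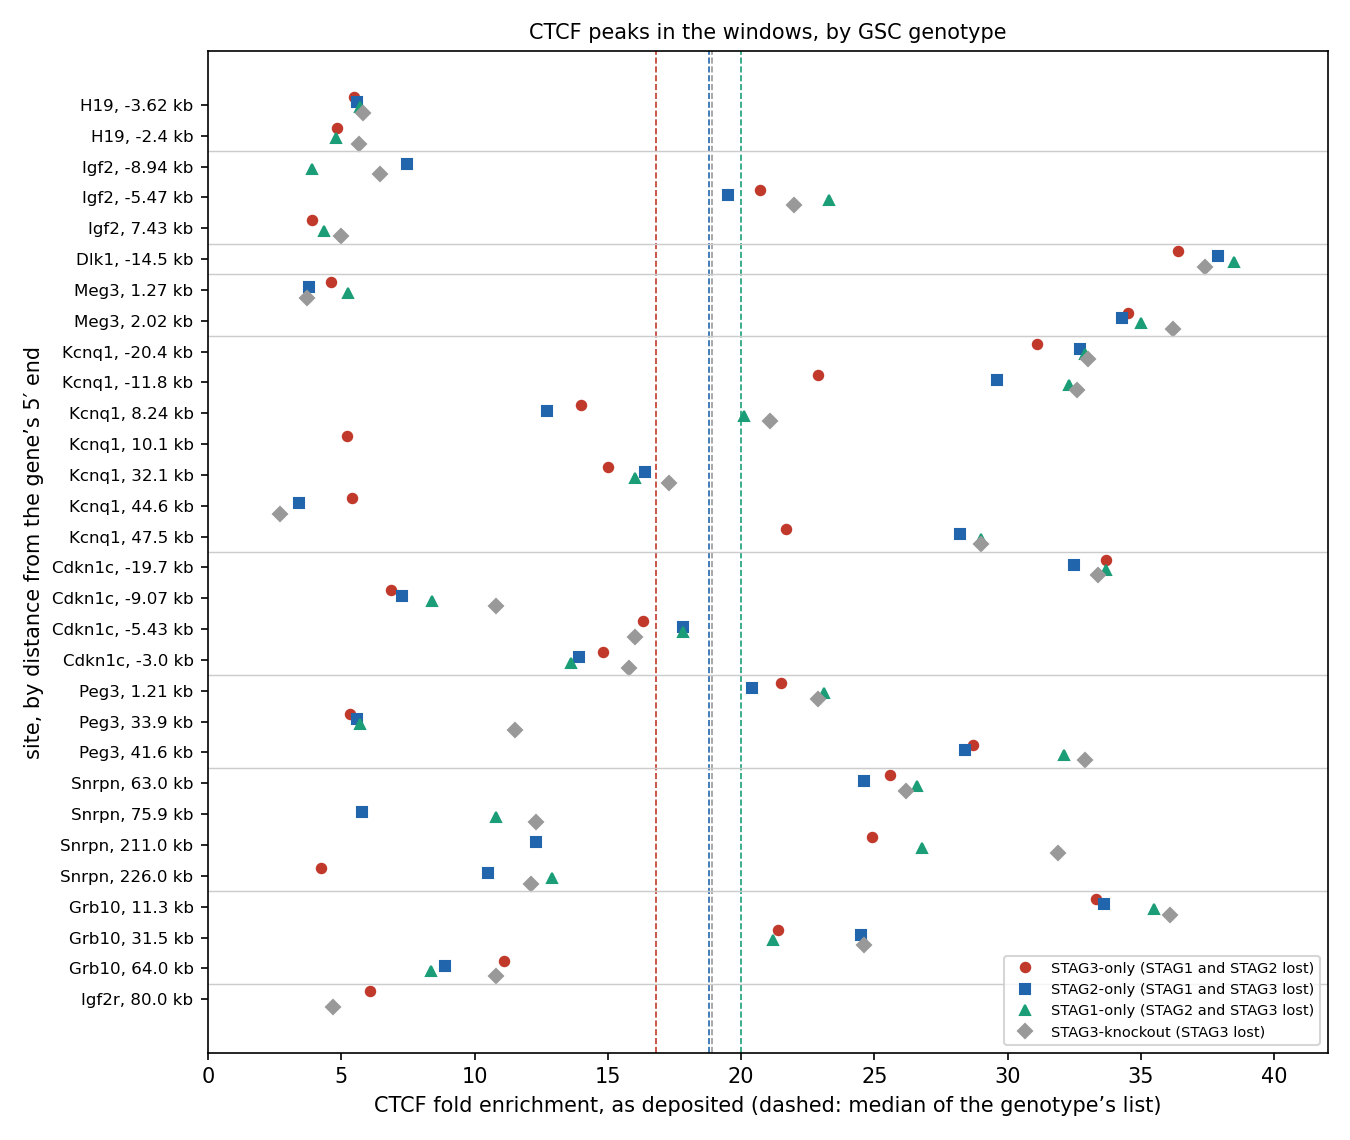
CTCF fold enrichment as deposited (x axis) at the 30 sites with a CTCF call (rows, by gene and distance from its 5′ end) in 4 mutant GSC genotypes (red STAG3-only, blue STAG2-only, green STAG1-only, grey STAG3-knockout); dashed lines are the medians of the lists. The H19 sites and the Meg3 site at 1.27 kb lie between 3.71 and 5.81, far left of the medians of 16.8 to 20, and the Dlk1 site at −14.5 kb lies above 36.

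The share of STAG peaks at CTCF sites was counted for each protein. In the windows, 49.5% ± 26.4 of STAG3 peaks (SD, n = 3) overlapped a CTCF peak of any genotype, beside 45.7% ± 10.9 over the whole lists. The value rests on few peaks: it was 80% in the shortest STAG3 list, with 10 peaks in the windows, and 34.2% without it. For STAG2 the share was 54.7% ± 15.4 (SD, n = 13) and 59% ± 12.5 over whole lists, and for STAG1 78% ± 11.2 (SD, n = 10) and 87.8% ± 7.45. With lists of equal length the 3 shares were 88.9%, 91.5% and 87.1%. The CTCF lists are of mutant GSC, so for the other cell types the share is measured against another cell type and line.

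The makeup of the window sites was set beside that of all sites. Of the 112, 91.1% had a STAG2 call, 40.2% a STAG1 call, 33% a STAG3 call and 26.8% a CTCF call, beside 86.3%, 33.9%, 29.9% and 30.1% of all sites. Of the 14 window sites that were called in all 18 STAG2 and STAG1 lists outside GSC, 5 were in no GSC STAG list (35.7%) and 4 were in all 8 (28.6%). Over the genome, 18.7% of 11445 such sites were in no GSC STAG list and 30.6% were in all 8. The 5 are the middle H19 site, both upstream Igf2 sites, the Dlk1 site at −15.9 kb and the Kcnq1 site at 45.6 kb.

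Other imprinted genes were counted in the same tests. Of 56 further imprinted genes matched by symbol, 40 had more STAG2 than STAG1 peaks, or 71.4%, beside 60.4% of all genes tested. Fewer peaks in GSC were found at 27, or 48.2%, beside 49% of all genes tested. None of the 56 passed in the opposite direction. Their windows are not all separate: Kcnq1ot1 lies in Kcnq1 and Airn in Igf2r, and Nnat and Blcap had the same values. Some peaks were thus counted more than once. In the comparison of STAG3 with STAG2 and STAG1, 51 of the 56 could be tested, and none passed, as was so for every gene. Not adjusted for window length, the median difference of the 56 was 1.48 peaks for STAG2 minus STAG1, beside 2.38 for the 10 genes and 1 for all genes. For GSC minus the other cell types it was −1.41 peaks, beside −2.62 for the 10 genes and −1.02 for all genes. Over the 30 lists, the gene on another chromosome whose peak numbers were most like those of Meg3 was Fhit on chromosome 14 (Pearson r = 0.966). For H19 it was Gm36409 (r = 0.942), for Igf2 Gm52444 (r = 0.936), for Dlk1 A830021F12Rik (r = 0.953), for Snrpn Gm39397 (r = 0.93) and for Igf2r Gm2830 (r = 0.934). For Kcnq1 it was Zmiz1 (r = 0.957), for Cdkn1c Lhx8 (r = 0.941), for Peg3 Tm9sf1 (r = 0.921) and for Grb10 Pakap (r = 0.923). The lists share their lengths across genes, so the likeness is a description. Genes with r over 0.9 numbered 463 for Meg3, 441 for Kcnq1, 101 for Dlk1 and between 6 and 64 for each other member.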

How the data were processed

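The deposited files are narrowPeak lists from MACS2. The tools named in the submitters' processing notes are Bowtie2 2.3.4.1, Trim Galore 0.4.1 with cutadapt 1.9.1, deepTools 3.5.0, SAMtools 1.7 and bedtools 2.29.2, with builds mm10 and GRCm38.p3. For each peak the authors give a fold enrichment, which is a ratio, the −log10 of p and of q, and a score derived from q. Each deposited −log10 q was at least 2. STAG lists were called per library and CTCF lists on pooled replicates, as the deposited peak names and the labels show.

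Gene positions are those of 49939 RefSeq genes on GRCm38.p6. Kcnq1 and Cdkn1c were given their known orientation, and H19 that of a miRNA inside it. Peaks overlapping a window by at least 1 bp were counted in Python 3.11.15 with numpy 2.4.6 and pandas 2.3.3. Windows and sites with a peak in at least 2 lists entered two-sided exact permutation tests over 36000 (STAG2 against STAG1), 12870 (GSC against others) or 56 reassignments (STAG3), with Benjamini-Hochberg adjustment over all genes or sites. The code was tested on simulated data. The labels do not say that replicates are separate cultures, so p-values measure the spread between these libraries, which may be technical. In the GSC comparison, lists and not cell types were reassigned, and the lists of the other cell types were pooled. The spread there also holds the differences among those cell types, and all GSC lists come from 1 line. Sites named are those in control regions, those with CTCF in all 4 genotypes and the site in most lists per gene; others were named after their values were seen. The members, lists and tests were chosen with earlier results of these data known.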

Additional observations from a re-analysis of the deposited data

How the results depend on the processing

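With lists of equal length, 1 of the 8 windows that could be tested had more STAG2 than STAG1 peaks and 4 fewer in GSC, and the changed signs were those of H19 (−0.5), Igf2 (−0.133), Kcnq1 (−0.167), Cdkn1c (−0.667) and Grb10 (−0.7) for STAG2 minus STAG1, of Cdkn1c (0.675), Meg3 (0.55) and Snrpn (0.471) for GSC, and of Kcnq1 (−0.667), Cdkn1c (−0.333) and Grb10 (0.8) for STAG3 minus STAG2 and STAG1. Counting any peak as yes or no left 1 window for STAG2 and 3 for GSC, with changed signs at Igf2 (−0.1), Grb10 (−0.0667), Meg3 and Snrpn (0.0625 each for GSC) and Grb10 (0.2 for STAG3); the last was 0.0667 at −log10 q of at least 5. A window of 5 kb left 5 of 8 windows lower in GSC. Single sites with more STAG2 calls numbered 3 as deposited, 1 other site with lists of equal length, 0 at −log10 q of at least 5, and 1 from summits; sites lower in GSC numbered 17 and 3 with equal length. With 56 reassignments the STAG3 comparison could hardly pass adjustment, so its 0 calls say nothing on stability; without 1 list its difference was −1.2 to 0.8 peaks at Snrpn and −0.583 to 0.667 at Grb10. Without 1 list, the numbers were 9 to 10 and 6 to 8 windows, and 1 to 4 and 12 to 20 sites, with the lowest GSC numbers without the GSC STAG2 list of replicate 2; 15 of 18 window calls and 13 of 20 site calls passed without any 1 list. The CTCF shares without 1 list were 34.2% to 57.6% for STAG3, 51.7% to 56.3% for STAG2 and 75.5% to 79.2% for STAG1, and with CTCF in all 4 genotypes 67.5% for STAG1; with equal length they were 88.9%, 91.5% and 87.1%. Lists outside GSC with a peak, at equal length, numbered 18 of 18 at H19, 8 at the Meg3 5′ end and 0 at the Meg3 intergenic region, Peg3, Kcnq1ot1 and Airn; GSC lists numbered 0 at Kcnq1ot1 and Airn. The cause of these changes beyond list length was not tested.

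Replicate numbers showed no sign of pairing the lists: over 10 pairs the correlation of same-numbered STAG2 and STAG1 lists, as deviations from group means, was −0.23 to −0.0222. The pairs are not independent. With 2 lists of each protein, the pairs of a cell type give the same value, −0.0308 in ESC and −0.0222 in EpiLC. With the replicate block, 2 windows had more STAG2 peaks, and 0 sites did, 8 windows and 16 sites were lower in GSC and the STAG3 comparison had 0 calls. Except for lists of equal length, the counts in this section come without the share of all genes or sites called under the same setting. They therefore do not set the 10 genes apart from other genes. Depth is unknown, so an absent call limits no amount of protein. The control region and promoter alternatives and the shares without 1 list were chosen after seeing the data.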
